A study of Prunus armeniaca and Prunus mume with 8 samples.

Results

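The 7 probes described here carry the names of enzymes that break down cyanogenic glucosides: 3 isoforms of prunasin hydrolase, mandelonitrile lyases on 3 probes, and a putative acetone-cyanohydrin lyase. A part of that putative lyase in the Prunus pathway was not tested. They are the probes, 7 of 10384, whose description in any of the authors' 7 deposited lists of probes differing at least 2-fold contained the words prunasin, amygdalin, mandelonitrile or cyanohydrin. None of the 7 was described as an amygdalin hydrolase. The identity of each probe rests on those descriptions, and 5 of the sequences came from Prunus serotina (black cherry) and 2 from almond (named Prunus dulcis for 1 and P. amygdalus for the other), none from the species on the arrays. No probe sequence was used, and a lower RNA level and a poorer match of a probe to a species cannot be told apart.

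RNA from fruits of Japanese apricot (Prunus mume) and of apricot (Prunus armeniaca) was hybridised to 8 one-colour arrays of 1 slide. The P. mume cultivars were Ruantiaohongmei and Xiyeqing, and the P. armeniaca cultivars were Manao and Zhenkui. Each cultivar had 2 arrays and each species 4. All samples were labelled as fruit of mixed stages, within stages 1 to 8 and weeks 3 to 13 after full bloom, with no treatment stated other than freezing. The labels do not state which stages entered an array, whether kernels were included, or whether separate trees gave the 2 arrays of a cultivar. The spread between arrays may therefore be technical, and each species is represented by 2 cultivars. Slide row 1 held Ruantiaohongmei and Manao and slide row 2 held Xiyeqing and Zhenkui, so rows and cultivar pairs cannot be told apart, and both species were present in each row.

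Cyanogenic glucosides are sugar-bound nitriles that Prunus plants store above all in seeds and leaves. When tissue is crushed, amygdalin hydrolase trims amygdalin to prunasin, prunasin hydrolase removes the remaining glucose to give mandelonitrile, and mandelonitrile lyase splits mandelonitrile into benzaldehyde, the bitter almond aroma, and hydrogen cyanide. In black cherry seeds the hydrolases and the lyase are kept apart from their substrates until the tissue is broken.

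The scanner software marked 7807 to 8982 probes per array as well above background, and arrays of a cultivar correlated at r = 0.969 to 0.992 across the 9121 tested probes. Ruantiaohongmei replicate 2 and Xiyeqing replicate 2 stood apart in transcripts of the fruit-softening enzyme endopolygalacturonase. All 6 described probes of that enzyme were well above background on these arrays, at 1.25 to 5.96 and -2.995 to 0.58, against at most 1 of the 6 on any other array, where the highest value was -4.10. The only described seed marker, oleosin (AY962832.1), stood at 1.31 on Ruantiaohongmei replicate 2, and between -6.14 and -4.90 on the other 7 arrays. Of 35 described probes of the fruit flesh marker list, 27 were well above background on all 8 arrays. Probes of these word lists also differed between species. Of 30 tested fruit flesh probes limma called 13 higher in P. mume and 5 lower, and 1 of 3 stone and lignin probes higher. Of all tested probes it called 15.1% higher and 21.6% lower. The flesh probes called higher were for polygalacturonase-inhibiting proteins (differences of 5.59 to 7.22) and for 1-aminocyclopropane-1-carboxylate oxidases. Those called lower were for expansins (differences of -1.61 to -1.36) and a putative pectin esterase (-0.92). The inhibiting proteins matched through the word polygalacturonase, so the count is not a measure of flesh tissue. The summed log2 signal of the flesh list was 7.76 to 9.56 in P. mume and 7.61 to 9.17 in P. armeniaca, and that of the stone list 4.47 to 6.26 in P. mume and 4.05 to 4.99 in P. armeniaca. The 3 green tissue probes (1 called higher, 1 lower) had a summed log2 signal of 6.26 to 7.165 in P. mume and 7.167 to 8.26 in P. armeniaca. The part of these markers in the enzyme differences was not tested. Values of the enzymes are also given without both replicate 2 arrays of P. mume.

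Each signal is the log2 processed signal less the 75th percentile of its array, so 0 marks a signal equal to that percentile, and levels of different probes cannot be ranked against each other. The enzyme probes entered the descriptions because the authors had listed them on these same arrays in 1 or more of 7 comparisons covering every pair of cultivars and the species. The members were thus selected on the authors' fold differences in these contrasts, and their differences are a description, given with the standard error (SE) of the limma fit. The species fit used 1 cultivar correlation, 0.0783, for all probes, so its SE and calls largely leave out the spread between cultivars. In P. mume that spread was wide for prunasin hydrolase PH I (cultivar means -5.03 and -1.86) and for the acetone-cyanohydrin lyase (-2.91 and -0.41). Counts of probes that the fit called are given for each comparison beside the share called among all probes, and as the rule used these contrasts, no such count is read as evidence about the enzymes. The bound of those lists was 2-fold. In the authors' deposited values the almond mandelonitrile lyase probe lay just inside it, 2.04-fold lower in Ruantiaohongmei than in Zhenkui, and the PH I probe just outside it, 1.92-fold higher in Ruantiaohongmei than in Zhenkui.

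Fruit of P. mume had lower signals of prunasin hydrolases B and C (PH B, PH C) and of the acetone-cyanohydrin lyase, and higher signals of prunasin hydrolase PH I and mandelonitrile lyase MDL4. The almond mandelonitrile lyase probe was slightly lower in P. mume. For each of the 7 probes, all 4 P. mume arrays lay on one side of the 4 P. armeniaca arrays in scaled signal. P. mume was above for 3 probes, 2 of them for MDL4, and below for 4. Of all 9121 tested probes 39.9% were separated in this way, 16.3% with P. mume above and 23.6% with it below. For PH I the species overlapped in spot brightness over local background, at 2.22 to 2.55 times in Ruantiaohongmei against 1.83 to 2.33 in Manao. In bulk fruit, fewer cells of a type and less RNA per cell cannot be told apart.

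**Figure D1:**
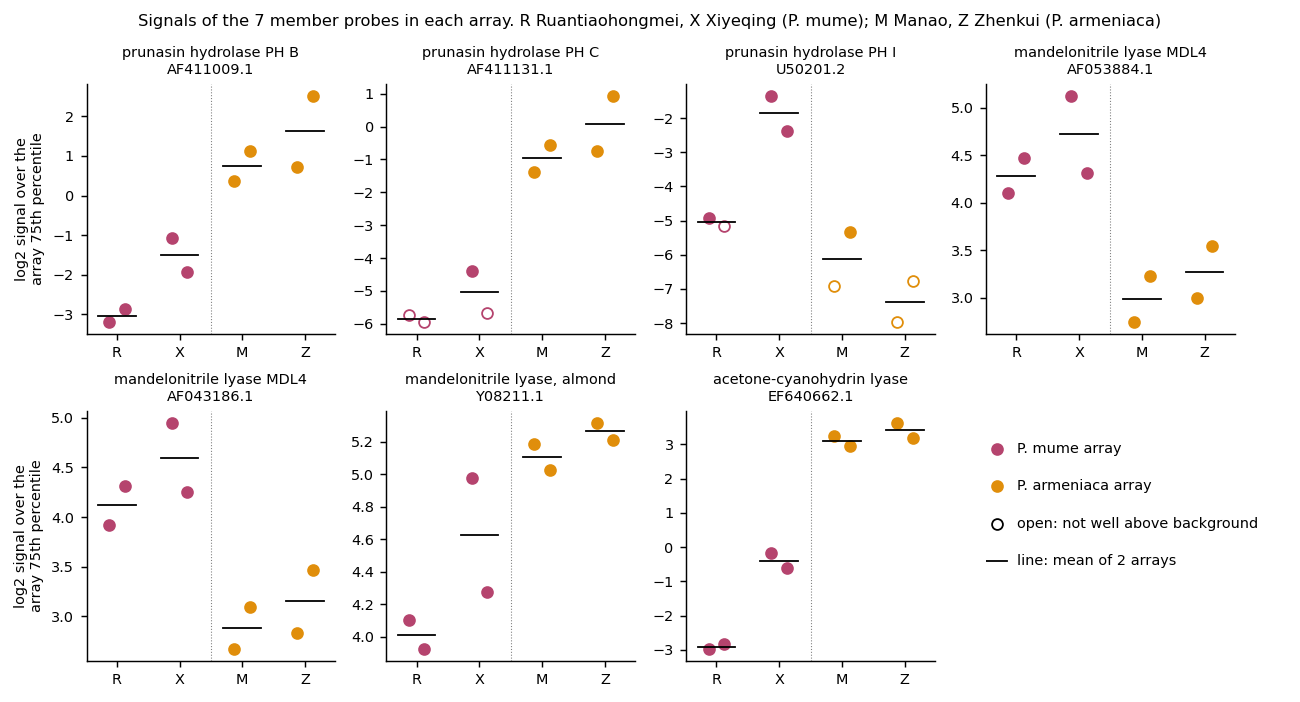
Log2 signal over the array's 75th percentile for the 7 enzyme probes on each array, 1 panel per probe with its own vertical scale, with the P. mume cultivars (R, X) left of the P. armeniaca cultivars (M, Z). Points are arrays, open points were not well above background, and lines are means of 2 arrays. PH B, PH C, the almond lyase and the acetone-cyanohydrin lyase sit lower in P. mume, and PH I and both MDL4 probes sit higher.

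Prunasin hydrolase PH B (AF411009.1) had signals of -3.20 and -2.86 in Ruantiaohongmei and -1.08 and -1.92 in Xiyeqing, against 0.37 and 1.13 in Manao and 0.73 and 2.52 in Zhenkui. Every P. mume array was below every P. armeniaca array, and within P. mume both Ruantiaohongmei arrays were below both Xiyeqing arrays. The means were -2.26 ± 0.96 in P. mume and 1.19 ± 0.94 in P. armeniaca (SD, n = 4 each), a difference of -3.45 (SE 0.57), or 10.9-fold. The probe was well above background on all 8 arrays. Its difference was -2.71 with normexp background correction, and -3.33 without both replicate 2 arrays of P. mume.

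Prunasin hydrolase PH C (AF411131.1) had signals of -5.73 and -5.96 in Ruantiaohongmei and -4.40 and -5.68 in Xiyeqing, against -1.38 and -0.55 in Manao and -0.76 and 0.94 in Zhenkui. The P. mume signals lay near the detection limit: the probe was well above background on Xiyeqing replicate 1 alone among the 4 P. mume arrays, and on all 4 P. armeniaca arrays. The means were -5.44 ± 0.70 in P. mume and -0.44 ± 0.98 in P. armeniaca (SD, n = 4 each), a difference of -5.00 (SE 0.53) as scaled. Neither Ruantiaohongmei array measured the probe, so the processed signals give only a bound there: PH C was at least 17.4-fold lower in Ruantiaohongmei than in Manao. This bound sets the Manao mean against the mean, per Ruantiaohongmei array, of the probe's own signal or, where higher, the lowest signal that still counted as well above background there. The bound holds for these processed signals alone, since the same pair differed 3.96-fold with normexp and 13.6-fold in the authors' deposited log2 values. The size of the species difference also depended on the background treatment, at -2.43 with normexp and -3.98 in the authors' deposited log2 values. Without both replicate 2 arrays of P. mume it was -4.63.

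Prunasin hydrolase PH I (U50201.2) ran the other way. Its signals were -4.91 and -5.15 in Ruantiaohongmei and -1.34 and -2.38 in Xiyeqing, against -6.93 and -5.33 in Manao and -7.98 and -6.76 in Zhenkui. The 2 Xiyeqing arrays stood well above the other 6, and Ruantiaohongmei was only just above Manao replicate 2. The probe was well above background on both Xiyeqing arrays, on Ruantiaohongmei replicate 1 and on Manao replicate 2. The means were -3.45 ± 1.88 in P. mume and -6.75 ± 1.09 in P. armeniaca (SD, n = 4 each), a difference of 3.31 (SE 0.89) as scaled. With normexp background correction the difference was 1.06, and in the authors' deposited log2 values it was 1.84. No Zhenkui array measured the probe, and on the processed signals PH I was at least 12.2-fold higher in Xiyeqing than in Zhenkui. Other background treatments gave smaller values for this pair, 3.01-fold with normexp and 9.39-fold in the authors' deposited log2 values. Xiyeqing replicate 1, the array with the highest PH I signal, had endopolygalacturonase signals of at most -5.34 and an oleosin signal of -5.48. The part of these markers in the PH I signal was not tested. Without both replicate 2 arrays of P. mume the PH I difference was 3.63.

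The brightness of these spots over the glass around them shows how far each level could be measured. In P. mume the PH C spot had 1.84 to 2.91 times the intensity of its local background, against 11.0 to 35.6 times in P. armeniaca. The PH I spot had 2.22 to 2.55 times the intensity of its background in Ruantiaohongmei and 5.04 to 8.51 times in Xiyeqing, against 1.83 to 2.33 times in P. armeniaca. The PH B spot, 3.46 to 10.0 times in P. mume against 32.1 to 108 times in P. armeniaca, stayed above background throughout. PH I in Ruantiaohongmei and in both P. armeniaca cultivars, and PH C in P. mume, were thus close to the glass, and their log2 levels turn on how the background was subtracted.

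**Figure D2:**
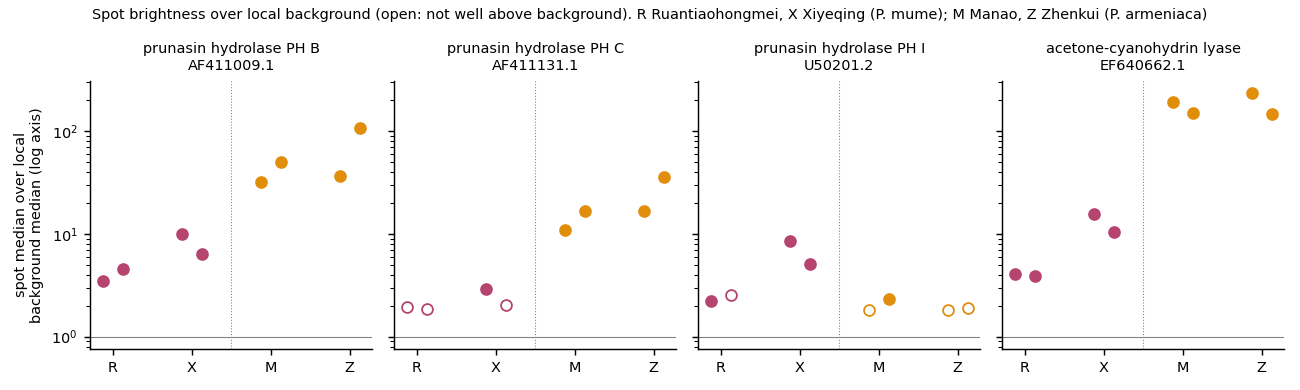
Median spot intensity divided by the median intensity of the local background (log axis) for the 3 prunasin hydrolase probes and the acetone-cyanohydrin lyase probe, with the P. mume cultivars (R, X) left of the P. armeniaca cultivars (M, Z). Points are arrays and open points were not well above background. PH C is near the line of 1 in P. mume, at 1.84 to 2.91, and PH I is near it in P. armeniaca, at 1.83 to 2.33.

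PH I and PH B therefore did not move together. A difference between 2 probes on the same array is free of array scaling, but where a spot is dim it still turns on the background treatment. The shift of such a difference between species restates the species differences of the 2 probes. PH I minus PH B was -1.18 ± 0.98 in P. mume and -7.94 ± 1.29 in P. armeniaca (SD, n = 4 each), a shift of 6.76, with 4.88 in slide row 1 and 8.63 in slide row 2. PH I was the dim one of the pair in P. armeniaca, where only 1 array measured it, and the shift was 3.77 with normexp background correction and 5.09 in the authors' deposited log2 values. PH B minus PH C was 3.18 ± 0.51 in P. mume and 1.63 ± 0.12 in P. armeniaca (SD, n = 4 each). PH C was measured on 1 P. mume array, and the shift of 1.55 became 0.73 in the authors' deposited log2 values and -0.28 with normexp. Unequal change of PH B and PH C was therefore not shown.

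Mandelonitrile lyase, the enzyme that releases hydrogen cyanide, was bright on every array. The MDL4 isoform of black cherry was printed as 2 probes under separate sequence entries. AF053884.1 had signals of 4.10 and 4.47 in Ruantiaohongmei and 5.13 and 4.32 in Xiyeqing, against 2.74 and 3.23 in Manao and 3.00 and 3.54 in Zhenkui. All 4 P. mume arrays were above all 4 P. armeniaca arrays, while the 2 cultivars of a species overlapped. The means were 4.50 ± 0.44 in P. mume and 3.13 ± 0.34 in P. armeniaca (SD, n = 4 each), a difference of 1.37 (SE 0.27), or 2.59-fold. It was 1.48 without both replicate 2 arrays of P. mume.

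The other MDL4 probe, AF043186.1, had signals of 3.92 and 4.31 in Ruantiaohongmei and 4.95 and 4.25 in Xiyeqing, against 2.67 and 3.10 in Manao and 2.83 and 3.47 in Zhenkui. Its means were 4.36 ± 0.43 in P. mume and 3.02 ± 0.35 in P. armeniaca (SD, n = 4 each), a difference of 1.34 (SE 0.27). The 2 probes differed from each other by 0.07 to 0.18 on every array, so they repeat 1 measurement and do not count as separate evidence. Their spots had 143 times or more the intensity of the local background on all 8 arrays, and normexp background correction gave 1.34 for AF053884.1 and 1.32 for AF043186.1.

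The almond mandelonitrile lyase probe (Y08211.1) had signals of 4.11 and 3.92 in Ruantiaohongmei and 4.98 and 4.28 in Xiyeqing, against 5.18 and 5.02 in Manao and 5.32 and 5.21 in Zhenkui. Ruantiaohongmei was lowest, and Xiyeqing replicate 1 came within a short distance of the Manao arrays. The means were 4.32 ± 0.46 in P. mume and 5.18 ± 0.12 in P. armeniaca (SD, n = 4 each), a difference of -0.86 (SE 0.24), or 1.82-fold. The authors listed this probe in 2 of 7 comparisons, Ruantiaohongmei with Manao and Ruantiaohongmei with Zhenkui, and not in that of the species. Without both replicate 2 arrays of P. mume the difference was -0.64.

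Within arrays the MDL4 and almond lyase probes shifted relative to each other between species. AF053884.1 minus Y08211.1 was -0.01 and 0.55 in Ruantiaohongmei and 0.15 and 0.04 in Xiyeqing, against -2.44 and -1.80 in Manao and -2.31 and -1.67 in Zhenkui. The species did not overlap, and the cultivars within each species did. The mean was 0.18 ± 0.25 in P. mume and -2.06 ± 0.38 in P. armeniaca (SD, n = 4 each). The shift of 2.24 was 2.39 in slide row 1 and 2.09 in slide row 2. It restates the species differences of the 2 probes given above and is not a further result. Both spots were far above background on every array, so this shift does not touch the detection limit.

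**Figure D3:**
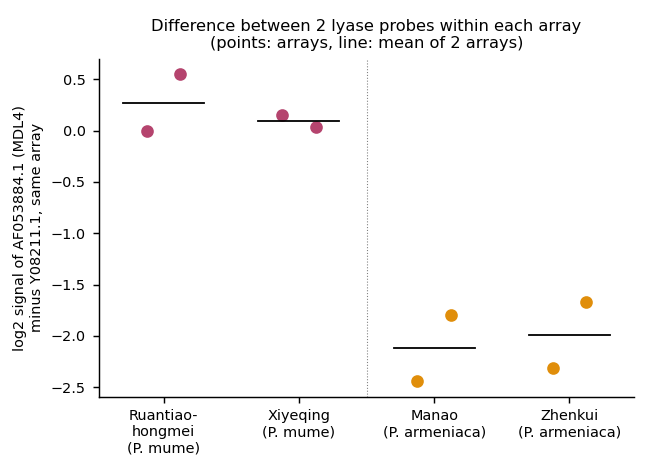
Log2 signal of the MDL4 probe AF053884.1 minus that of the almond mandelonitrile lyase probe Y08211.1 on the same array (vertical axis), by cultivar, with P. mume left of P. armeniaca. Points are arrays and lines are means of 2 arrays. The 4 P. mume arrays sit between -0.01 and 0.55 and the 4 P. armeniaca arrays between -2.44 and -1.67.

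The putative acetone-cyanohydrin lyase (EF640662.1) was described from almond. Acetone-cyanohydrin lyases are hydroxynitrile lyases, known from cassava and the rubber tree, where they release hydrogen cyanide from the acetone cyanohydrin formed from linamarin. The probe had signals of -2.99 and -2.83 in Ruantiaohongmei and -0.19 and -0.62 in Xiyeqing, against 3.24 and 2.96 in Manao and 3.63 and 3.19 in Zhenkui. Ruantiaohongmei was lowest, Xiyeqing intermediate, and both P. armeniaca cultivars high and overlapping. The means were -1.66 ± 1.46 in P. mume and 3.26 ± 0.28 in P. armeniaca (SD, n = 4 each), a difference of -4.91 (SE 0.61), or 30.2-fold. The probe was well above background on all 8 arrays, at 3.92 to 15.7 times its local background in P. mume and 146 to 236 times in P. armeniaca. Its difference was -4.26 with normexp background correction and -4.85 without both replicate 2 arrays of P. mume.

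Limma's species fit, with Benjamini-Hochberg adjustment over all tested probes, called all 7 enzyme probes, 3 of them higher and 4 lower in P. mume. The 2 MDL4 probes, which repeat 1 measurement, enter this and the other counts and medians as 2 probes. It called 36.7% of all tested probes, 15.1% as higher and 21.6% as lower. PH C entered the testing only through the P. armeniaca cultivars and PH I only through Xiyeqing, in each case where its signal was high. With testing limited to probes well above background on all 8 arrays, 5 enzyme probes remained and all 5 were called. The median difference was -0.86 over the 7 probes and -0.11 over all tested probes. The call of PH I was lost without Xiyeqing replicate 2. That of the almond lyase probe was lost without either Ruantiaohongmei array or without Xiyeqing replicate 2, and 5 probes were called without both replicate 2 arrays of P. mume.

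The species difference was also taken within each slide row, between arrays that the 2 pairs do not share. For PH B it was -3.78 (SE 0.60) for Ruantiaohongmei over Manao and -3.12 (SE 0.60) for Xiyeqing over Zhenkui. For PH C it was, as scaled, -4.88 (SE 0.63) for Ruantiaohongmei over Manao and -5.13 (SE 0.63) for Xiyeqing over Zhenkui, against -1.98 and -2.88 with normexp. Both hydrolases were thus lower in the P. mume cultivar of each row.

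PH I was 1.102 (SE 0.63) higher in Ruantiaohongmei than in Manao and 5.51 (SE 0.63) higher in Xiyeqing than in Zhenkui, as scaled, against 0.52 and 1.59 for these pairs with normexp. For MDL4 (AF053884.1) the difference was 1.30 (SE 0.35) in row 1 and 1.45 (SE 0.35) in row 2. The almond lyase probe differed by -1.09 (SE 0.27) in row 1 and by -0.64 (SE 0.27) in row 2. The acetone-cyanohydrin lyase was 64.5-fold lower in Ruantiaohongmei than in Manao (-6.01, SE 0.26) and 14.1-fold lower in Xiyeqing than in Zhenkui (-3.82, SE 0.26). With normexp it was 30.4-fold lower in Ruantiaohongmei than in Manao and 12.1-fold lower in Xiyeqing than in Zhenkui. PH B, 13.7-fold lower in Ruantiaohongmei than in Manao as scaled, was 6.58-fold lower with normexp. The direction of every probe was the one of the species comparison in both rows, which followed from the arrays of the species not overlapping. It was the same under all 19 other settings (18 for PH C and PH I, which the strictest filter removed). Filters, blocks and fit options leave these differences as they are, and leaving out arrays could not have reversed them. Only other scaling, normexp and the authors' values bore on the direction.

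Limma called 6 of 7 probes for Ruantiaohongmei over Manao, where it called 21.6% of all probes, the exception being PH I. It called 6 of 7 for Xiyeqing over Zhenkui, where it called 27.8% of all probes, the exception being the almond lyase. PH C entered the first comparison through Manao and PH I the second through Xiyeqing, since the other cultivar did not measure them, and the rule used both comparisons. Without either Ruantiaohongmei array or either Manao array the first count was 3: PH B, PH C and the acetone-cyanohydrin lyase. Without Zhenkui replicate 1 the second count was 4.

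**Figure D4:**
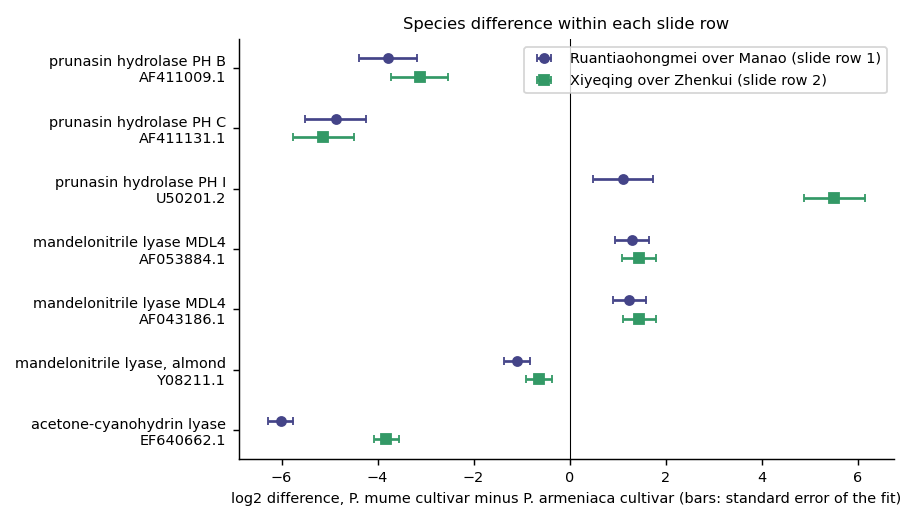
Log2 difference of each enzyme probe (horizontal axis) between the P. mume and the P. armeniaca cultivar of the same slide row, with bars for the standard error of the fit. Circles are Ruantiaohongmei over Manao and squares are Xiyeqing over Zhenkui. The 2 rows lie close together for MDL4 and, as scaled, for PH C, which neither Ruantiaohongmei array measured. They lie apart, as scaled, for PH I (1.102 and 5.51) and the acetone-cyanohydrin lyase (-6.01 and -3.82).

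Whether the species difference itself differed between the rows was addressed by the interaction of the 2 pairs, (Ruantiaohongmei minus Manao) minus (Xiyeqing minus Zhenkui). As scaled it was -4.41 (SE 0.89) for PH I and -2.19 (SE 0.37) for the acetone-cyanohydrin lyase, and between -0.66 and 0.26 for the other 5 probes. No Zhenkui array measured PH I, and with normexp the interaction was -1.07 for PH I and -1.33 for the acetone-cyanohydrin lyase. For PH C, which neither Ruantiaohongmei array measured, it was 0.26 as scaled and 0.90 with normexp. Limma called 0 of the 7 interactions after adjustment, with 2 at an unadjusted p under 0.05, where it called 0.197% of all probes and 7.61% had an unadjusted p under 0.05. The unequal sizes in the rows were thus not past the threshold.

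Between the P. mume cultivars all 7 probes were lower in Ruantiaohongmei than in Xiyeqing, and for 5 of them both arrays of Ruantiaohongmei lay below both of Xiyeqing. Of all tested probes 19.4% did so, and the median difference was -0.80 over the 7 and -0.06 over all. The acetone-cyanohydrin lyase was 5.68-fold lower (-2.51, SE 0.26), PH I was at -3.16 (SE 0.63) as scaled, and PH B at -1.53 (SE 0.60). PH C was at -0.80 (SE 0.63) with 1 of the 4 arrays well above background, and the mandelonitrile lyase probes lay between -0.61 and -0.44. With normexp the differences were -1.60 for the acetone-cyanohydrin lyase, -1.20 for PH I, -0.83 for PH B and -0.05 for PH C. Limma called 1 of 7 probes, the acetone-cyanohydrin lyase, where it called 0.592% of all probes. That call was lost without Ruantiaohongmei replicate 2 and without Xiyeqing replicate 1. These cultivars sat in different slide rows, so cultivar and row cannot be told apart.

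Between the P. armeniaca cultivars limma called 0 of 7 probes for Manao over Zhenkui, and none of the 7 had an unadjusted p under 0.05. It called 0% of all probes in this comparison, with 11.2% (1022 probes) at an unadjusted p under 0.05. PH C stood at -1.06 (SE 0.63) and PH B at -0.87 (SE 0.60), and Zhenkui replicate 2 had the highest signal of all arrays for both. Without Zhenkui replicate 2 the difference of PH B was 0.02. The acetone-cyanohydrin lyase was at -0.31 (SE 0.26), and the 3 mandelonitrile lyase probes lay between -0.29 and -0.16. PH I was the only probe with a positive difference, 1.24 (SE 0.63) as scaled, with Manao replicate 2 alone well above background among the 4 arrays, and -0.13 with normexp. Cultivar and slide row cannot be told apart here either.

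The size of a difference depended on the processing where a spot was dim. PH C and PH I lost most with normexp background correction, while MDL4 and the almond lyase probe, bright on every array, kept their differences to within the spread between arrays. No species difference of the 7 probes changed direction under any other setting that gave a value. Filters, blocks, fit options and leaving out arrays could not have changed it, since the arrays of the species did not overlap.

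**Figure D5:**
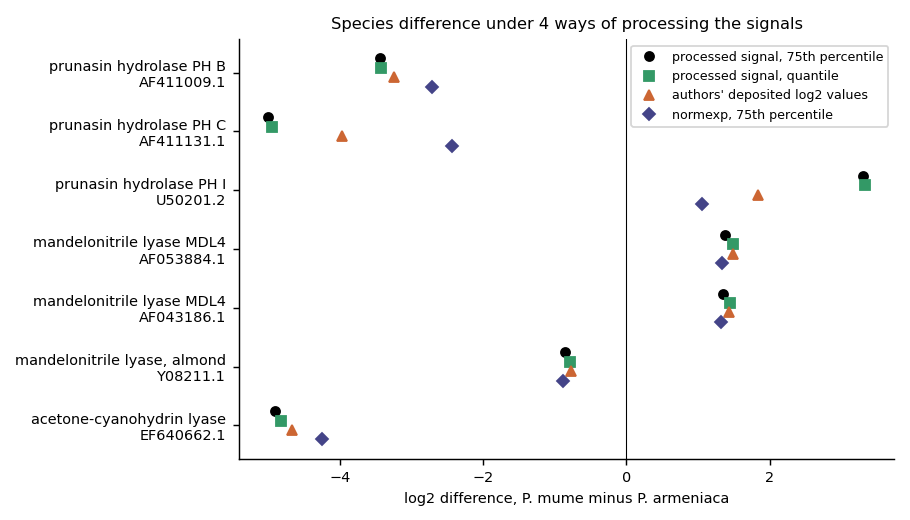
Species difference of each enzyme probe (horizontal axis, log2, P. mume minus P. armeniaca) under 4 ways of processing the signals. Circles use the processed signal scaled to the 75th percentile, squares quantile normalization, triangles the authors' deposited log2 values and diamonds normexp background correction. PH C runs from -5.00 to -2.43 and PH I from 1.06 to 3.33, and no probe crosses 0.

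The other steps of the pathway were covered thinly among the 658 described probes. Phenylalanine, the starting amino acid of prunasin, is also the substrate of phenylalanine ammonia-lyase, the entry enzyme of phenylpropanoid synthesis, and 2 probes for that enzyme were the only ones to match the words for synthesis. PAL1 (AF036948.1) had signals of 2.89 and 3.74 in Ruantiaohongmei and 3.42 and 3.37 in Xiyeqing, against 3.87 and 4.70 in Manao and 4.70 and 5.92 in Zhenkui, a difference of -1.44 (SE 0.41). The apricot probe EF031063.1 differed by -1.90 (SE 0.41). The same species fit called 0 of these 2 probes higher and 2 lower in P. mume. Without both replicate 2 arrays of P. mume neither was called, and the call of PAL1 was also lost without Ruantiaohongmei replicate 1 and without either Xiyeqing array. Both were described only because the authors had listed them on these arrays. No described probe matched the words for cytochrome P450 enzymes or glucosyltransferases of synthesis, for other glucosidases, or for cyanide removal such as cyanoalanine synthase. These were therefore not analysed here.

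The described probes most like each enzyme across the 8 arrays were named by Pearson's r among 235 tested candidates. These values describe a pattern that is largely the species difference shared by all 8 arrays, and they carry no test. PH B was most like heat shock protein HSP90 (EF640665.1, r = 0.978), a protein-folding chaperone. PH C was most like a peach beta-galactosidase (AY874412.1, r = 0.978), which trims cell wall sugars, and an actin of the cytoskeleton (FJ560908.1, r = 0.977). PH I had no close match among these candidates, with r = 0.833 for the ethylene signalling gene EIN2 (GU120631.1) and r = 0.828 for a putative disease resistance protein (EF640680.1).

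Both MDL4 probes were most like a putative PQ-loop repeat protein (EF640676.1, r = 0.953 for each) and then a putative photosystem I assembly protein (EF640703.1, r = 0.937 for AF053884.1 and 0.941 for AF043186.1). The almond lyase probe was most like lipid transfer protein LTP1 (AY093700.1, r = 0.942). The acetone-cyanohydrin lyase was most like a plum cDNA similar to agmatine deiminase (EY458089.1, r = 0.991), an enzyme of polyamine synthesis. A plum cDNA similar to phosphoethanolamine N-methyltransferase (EY458092.1), an enzyme of membrane lipid synthesis, came next for PH B (r = 0.970), for the almond lyase probe (r = 0.939) and for the acetone-cyanohydrin lyase (r = 0.967). Of the 9120 other tested probes, 295 reached r of 0.95 with PH C, 230 with the acetone-cyanohydrin lyase and 143 with PH B. Only 36 did so with the almond lyase probe, 30 and 27 with the MDL4 probes and 4 with PH I.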

How the data were processed

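Single-colour (Cy3) signals were measured on 8 Agilent arrays. The deposited scanner files hold spot intensity values that the authors obtained with Agilent Feature Extraction, version 10.7.1.1 per the file headers and 8.1 per the submitters' processing notes. The authors also deposited log2 values for every probe, with a normalization not given in the sources used here, and lists with the fold ratio, a p-value and a description of each probe. Descriptions were taken from those lists, which hold only probes selected on these arrays. The enzyme probes, gene lists and tests were chosen with earlier results of these data known.

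From the scanner files, log2 of the processed signal was taken, control spots and spots marked as outliers were left out, spots of a probe were averaged, and the 75th percentile of each array over probes was subtracted. Testing was limited to 9121 of 10384 probes, those with a value on every array that both arrays of some cultivar measured well above background. Limma 3.58.1 in R 4.3.3 fitted species with cultivar as random block (correlation 0.0783), and cultivar pairs as contrasts of 4 cultivar means. A call was a Benjamini-Hochberg adjusted p under 0.05. Tested on simulated data, the species fit recovered 90.5% of 200 of 9121 probes changed by 2 on the log2 scale, with 14 false calls. The share of false calls among the species calls on these arrays, where cultivars of a species can differ, was not tested. Normexp background correction (offset 50) used the median spot signal, since the scanner files used here hold no mean signal. Other alternatives were quantile and median scaling, other filters, the authors' log2 values, other blocks and leaving out arrays.

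All probes matching the rule were named, together with every match of the synthesis list and the 2 described probes most like each enzyme. Named outside that rule, after their values were seen, were oleosin, the endopolygalacturonase probes and the groups of flesh probes called higher or lower. The number of arrays limits the precision.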

Additional observations from a re-analysis of the deposited data

How the results depend on the processing

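The species difference of each of the 7 probes kept its direction under all 19 other settings (18 for PH C and PH I). Many of these settings could not have reversed it, as stated above. Of these settings, leaving out 1 array of each P. mume cultivar together (both replicate 2 arrays) was chosen after seeing the data. Outside the spread between arrays moved PH C, at -2.43 with normexp background correction and -3.98 in the authors' deposited log2 values, and PH I, at 1.06 with normexp. Leaving out 1 array at a time, the enzyme probes called between species numbered 5 to 7, all probes called 2559 to 4179, the enzyme probes called 3 to 6 for Ruantiaohongmei over Manao, 4 to 6 for Xiyeqing over Zhenkui, 0 to 1 for Ruantiaohongmei over Xiyeqing, and 0 in each such fit for Manao over Zhenkui and for the interaction. With the authors' deposited log2 values 2 probes were called for Ruantiaohongmei over Xiyeqing, PH I being added. Leaving out both replicate 2 arrays of P. mume gave 1871 calls over all probes between species, against 3348, and 0 enzyme probes called for Ruantiaohongmei over Xiyeqing; fewer samples enter that fit. Of all species calls 41.2% were higher in P. mume, and 47.1% with normexp.

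Same-numbered arrays did not deviate together in every pair of cultivars (r from -0.176 to 0.393 across probes), so the numbers were not taken to pair arrays, and not every array correlated best with its own number. With the replicate block 3091 probes and all 7 enzyme probes were called between species, and 4 enzyme probes for Ruantiaohongmei over Manao, against 6. Differences between Manao and Zhenkui changed sign for PH B (0.02) and for AF043186.1 (0.05) without Zhenkui replicate 2, for PH I with normexp (-0.13), and for the almond lyase probe with quantile normalization and the authors' values (up to 0.12). Signal over background limits PH C in P. mume and PH I in P. armeniaca.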
